A study of Mus musculus with 6 samples.

Results

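The 10 genes described here are the enteroendocrine hormones and regulators *Chga*, *Chgb*, *Pyy*, *Gcg*, *Sst*, *Cck*, *Insl5*, *Tph1*, *Neurod1* and *Nts*, chosen by gene name from 27202 genes listed for RNA-seq of mouse colon tissue. The comparison asked how their RNA differed when the ubiquitin ligase gene *Nedd4l* was deleted in the intestinal epithelium during colitis. The cKO group was 3 colon libraries from mice with floxed *Nedd4l* (fl/fl) and Villin Cre. The Villin promoter drives Cre and so removes the floxed *Nedd4l* segment in intestinal epithelial cells, including enteroendocrine cells. The WT group was 3 colon libraries of *Nedd4l* fl/fl littermates without Cre. The mice, 8 to 10 weeks old, drank 2% dextran sulfate sodium (DSS), which injures the colonic epithelium, and colon was taken on day 7. No colon without DSS was compared here, so all values are from DSS-treated tissue.

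Enteroendocrine cells (EECs) are scattered hormone-secreting cells of the gut epithelium. They store peptide hormones or serotonin in dense-core granules together with granins, and release them toward blood vessels and nerves when nutrients, microbial metabolites or irritants reach their receptors. In the colon the main kinds are L cells, which make peptide YY, glucagon-like peptides and INSL5, enterochromaffin cells, which make serotonin, and D cells, which make somatostatin. Cholecystokinin and neurotensin are made mostly in the small intestine.

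Promoter stretches of 4 of the genes are shown first. They include *Chgb* and *Cck*, as each ratio of 2 of the 9 genes tested below without overlap between the genotypes held either gene. *Chga* and *Sst* were picked from their partners that share with them the core of the cAMP response element (CRE). *Tph1*, a partner that also holds the core, is not shown. The RefSeq promoters on GRCm38.p6 hold the 250 bases before each start, and all 10 genes matched an entry. Capitals mark the core TGACG, its reverse complement CGTCA, or the whole palindrome TGACGTCA, and every stretch is written 5′ to 3′ on the strand of its gene.
*Chga*, chr12:102554841-102554940, plus strand: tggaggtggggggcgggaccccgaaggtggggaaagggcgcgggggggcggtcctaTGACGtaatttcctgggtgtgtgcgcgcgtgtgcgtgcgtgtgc
*Chgb*, chr2:132781559-132781588, plus strand: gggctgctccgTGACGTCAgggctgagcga
*Sst*, chr16:23890874-23890903, minus strand: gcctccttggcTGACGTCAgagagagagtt
*Cck*, chr9:121495695-121495794, minus strand: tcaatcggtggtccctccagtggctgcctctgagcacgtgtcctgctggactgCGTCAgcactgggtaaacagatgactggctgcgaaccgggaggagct
Some genes have more than 1 promoter, and the 10 genes have 13. The core was found on either strand in 7 of these 13 promoters, which belong to the 4 genes shown, *Tph1* and *Nts*, and in 17.8% of all 32851 promoters of this length. The palindrome was found in 2 of the 13, those of *Chgb* and *Sst*, and in 1.55% of all promoters. The deposited bounds of *Chgb* begin at base 132781278 and those of *Sst* end at base 23890958. Both stretches therefore lie before the RefSeq start but inside the deposited gene bounds. The E-box CANNTG, the kind of site that NEUROD1 binds, was found in 11 of the 13 and in 66.2% of all promoters. *Tph1* was the gene without it. The overlapping core and palindrome were counted separately. A match of letters is a description of the window and not of binding.

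The values are normalized counts, which are reads per gene divided by a size factor of the library. Library totals lay between 14914367 and 17547270 steps, a step being the smallest value of a library and about 1 normalized count. *Nedd4l* was 476, 942 and 566 in cKO libraries and 1241, 1271 and 1266 in WT libraries, so the 2 groups did not overlap, and cKO replicate 2 was the highest of the cKO libraries. Its log2 fold change of -0.99 did not pass the threshold in limma (adjusted p = 0.225). The 13 epithelial markers, all of them tested, summed to between 255289 and 291125 in cKO libraries and between 271502 and 293296 in WT libraries. In cKO replicate 1 the distal colon gene *Hoxd13* was 17.3 against 78.9 to 651 in the other 5 libraries, and the neutrophil gene *S100a8* was 2708 against 12.8 to 417. These last 2 genes were picked after their values were seen. The labels number 3 libraries in each group but do not name the animal behind each, so a p-value measures the spread between libraries, which may be technical.

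Of the 10 genes, 9 had a mean of at least 10 normalized counts and were tested. *Nts* was below that level. Of the 9, 6 had a lower mean and 3 a higher mean on the log2 scale in cKO libraries, and their median log2 fold change was -0.20. Over all 16246 genes tested the median was 0.0013 and 49.8% were below 0. None of the 9 passed an adjusted p of 0.05 in limma in either direction, and 0.0% of all genes tested were called lower and 0.0% higher. Without adjustment, 0 of the 9 had a p under 0.05 in either direction, against shares lower and higher of 7.08% and 6.91% of all genes. No tested member was lower in every cKO library than in every WT library, against 10.9% of all genes, and 1, *Cck*, was higher in every cKO library, against 10.5% of all genes. The exact permutation test of 3 against 3 cannot give a two-sided p below 0.10. In whole tissue, fewer cells of a type and less RNA per cell cannot be told apart.

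**Figure D1:**
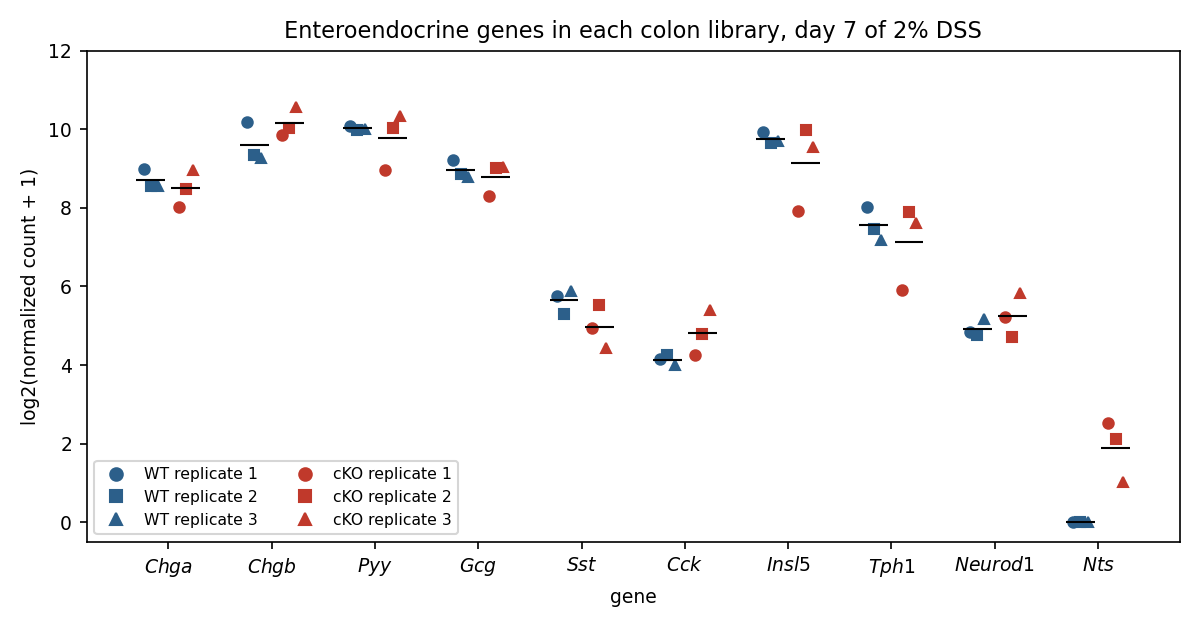
Level of the 10 genes (x axis) in each of the 6 libraries on the log2(normalized count + 1) scale (y axis), with 1 point per library, blue for WT and red for cKO, a shape per replicate number and a bar at the mean of each genotype. WT points of *Pyy* lie close together, between 1012 and 1081 normalized counts, while cKO points spread from 502 to 1284, and *Nts* is at 0 in all WT libraries.

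The granins chromogranin A and chromogranin B help to form the dense-core granules and are general markers of EECs. *Chga* (ENSMUSG00000021194) was 260, 359 and 500 normalized counts in cKO libraries and 505, 375 and 376 in WT libraries. The groups overlapped, with the lowest value in cKO replicate 1. The means were 373 ± 121 and 419 ± 74.4 (SD, n = 3 each), and the log2 fold change was -0.20 (SE 0.24, 95% interval -0.78 to 0.37, adjusted p = 0.724 in limma). *Chgb* (ENSMUSG00000027350) was 923, 1046 and 1523 in cKO libraries and 1157, 650 and 619 in WT libraries. WT replicate 1 lay inside the cKO range and the other WT libraries below it. The means were 1164 ± 317 and 809 ± 302 (SD, n = 3 each), and the log2 fold change was 0.55 (SE 0.30, 95% interval -0.18 to 1.28, adjusted p = 0.448 in limma). Leaving out 1 library gave log2 fold changes of 0.34 to 0.84 for *Chgb*. The highest, 0.84, was without WT replicate 1, the WT library inside the cKO range (unadjusted p = 0.00729, adjusted p = 0.358 in limma).

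The L-cell hormones are *Pyy*, which encodes the appetite-reducing peptide YY, *Gcg*, whose product is cut in the gut into the glucagon-like peptides, and *Insl5*, an insulin-family hormone of the distal colon. *Pyy* (ENSMUSG00000017311) was 502, 1052 and 1284 in cKO libraries and 1081, 1012 and 1037 in WT libraries. Of the cKO libraries 1 was below all WT libraries, 1 within their range and 1 above it. The log2 fold change was -0.25 (SE 0.34, 95% interval -1.09 to 0.60, adjusted p = 0.768 in limma). *Gcg* (ENSMUSG00000000394) was 316, 521 and 524 in cKO libraries and 595, 464 and 437 in WT libraries. Only cKO replicate 1 was below the WT range. The log2 fold change was -0.16 (SE 0.22, 95% interval -0.68 to 0.35, adjusted p = 0.758 in limma). *Insl5* (ENSMUSG00000066090) was 241, 1019 and 747 in cKO libraries and 982, 802 and 834 in WT libraries. Its cKO values held both the lowest and the highest of the 6, and the log2 fold change was -0.61 (SE 0.54, 95% interval -1.94 to 0.71, adjusted p = 0.625 in limma).

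*Tph1* (ENSMUSG00000040046) encodes the tryptophan hydroxylase that limits serotonin synthesis in enterochromaffin cells. It was 59.4, 235 and 196 in cKO libraries and 261, 175 and 144 in WT libraries. Again cKO replicate 1 was the lowest library, and the other two cKO libraries lay within the WT range. The log2 fold change was -0.41 (SE 0.55, 95% interval -1.76 to 0.93, adjusted p = 0.755 in limma). Mast cells also express *Tph1*. Of 10 mast cell markers, 7 were tested, 2 with a log2 fold change below 0 and 5 above 0. At an unadjusted p under 0.05 in limma, 4 were higher in cKO libraries, against 6.91% of all genes tested. All 10 summed to 811 to 1799 in cKO libraries and 830 to 919 in WT libraries. *Kit*, which interstitial cells of Cajal also express, went the other way. It was 283, 645 and 531 in cKO libraries and 739, 724 and 703 in WT libraries. *Cma1*, the other tested marker with a log2 fold change below 0 (-0.48), overlapped between the groups. It was 10.5, 35.4 and 39.2 in cKO libraries and 43.5, 27.0 and 35.9 in WT libraries. Without *Kit*, a split made after the values were seen, the markers summed to 528, 1154 and 571 in cKO libraries and 181, 106 and 134 in WT libraries, with no overlap. *Hdc* was 329, 27.6 and 56.7 in cKO libraries and 10.9, 6.30 and 9.99 in WT libraries, so it held a large part of the sum in cKO replicate 1. The part of mast cells in the *Tph1* values was not tested.

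*Sst* (ENSMUSG00000004366) encodes somatostatin, the D-cell peptide that inhibits other endocrine cells and is also made by some enteric neurons. It was 29.7, 45.3 and 20.6 in cKO libraries and 53.3, 38.7 and 57.9 in WT libraries. The groups overlapped through cKO replicate 2, which was above WT replicate 2, and the lowest library was cKO replicate 3. The means were 31.9 ± 12.5 and 49.98 ± 10.04 (SD, n = 3 each), with a log2 fold change of -0.68 (SE 0.34, 95% interval -1.47 to 0.10, adjusted p = 0.406 in limma). Enteric neuron markers, 9 of 13 tested, summed to 219 to 582 in cKO libraries and 232 to 639 in WT libraries, and their part in the *Sst* values was not tested. Leaving out 1 library gave log2 fold changes of -0.96 to -0.41 for *Sst*. The lowest, -0.96, was without cKO replicate 2, through which the groups overlapped (adjusted p = 0.200 in limma).

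*Cck* (ENSMUSG00000032532) encodes cholecystokinin, which stimulates gallbladder emptying and satiety. It was 18.2, 26.5 and 41.3 in cKO libraries and 16.8, 17.99 and 15.0 in WT libraries. Every cKO value was above every WT value, but cKO replicate 1 exceeded the highest WT library by little. In steps, cKO replicate 1 had 19 and WT replicate 2 had 20, so the order of these libraries rests on their size factors. The means were 28.7 ± 11.7 and 16.6 ± 1.52 (SD, n = 3 each), and the log2 fold change was 0.68 (SE 0.36, 95% interval -0.15 to 1.52, adjusted p = 0.423 in limma; exact permutation p = 0.10). The depth behind it was small, with 83 steps over the cKO libraries and 52 over the WT libraries. Leaving out cKO replicate 3 lowered the log2 fold change to 0.39, and leaving out cKO replicate 1 raised it to 0.96.

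*Nts* (ENSMUSG00000019890) encodes neurotensin, a peptide of ileal N cells that enteric nerves also contain. It was 4.79, 3.32 and 1.03 in cKO libraries, which is 5, 3 and 1 steps, and was listed at 0 in all 3 WT libraries. It was not tested and no fold change is given. *Neurod1* (ENSMUSG00000034701) encodes a basic helix-loop-helix transcription factor of the EEC lineage that acts after *Neurog3*. It was 36.4, 25.4 and 55.7 in cKO libraries and 27.7, 26.1 and 34.9 in WT libraries. The cKO range enclosed the WT range, and the log2 fold change was 0.34 (SE 0.34, 95% interval -0.44 to 1.12, adjusted p = 0.665 in limma). *Neurod1* overlaps *Cerkl* on the same strand, whose mean was 8.0, and reads of their shared bases are uncertain. The other 9 genes overlap no gene of the table.

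To compare levels between genes, normalized counts were divided by gene length, and the levels in WT libraries are given per kilobase (n = 3). *Pyy* was highest at 1654 ± 55.5 (SD), followed by *Insl5* at 1205 ± 132. *Gcg* at 334 ± 56.3 and *Chgb* at 295 ± 110 came next and overlapped between libraries. *Chga* was 152 ± 27.0, *Sst* 69.3 ± 13.9 and *Tph1* 31.3 ± 9.82. *Cck* at 12.7 ± 1.16 and *Neurod1* at 10.8 ± 1.73 overlapped, and *Nts* was listed at 0. *Pyy* and *Insl5*, both L-cell hormones, thus had the highest levels per length in DSS-treated WT colon. In every other pair of neighbours in this order, all WT values of the higher gene were above those of the lower one.

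Across libraries the genes did not all move together. The median log2 difference of the 9 genes from the WT mean was lowest in cKO replicate 1 (-0.67) and highest in cKO replicate 3 (0.27). On the log2 scale relative to the WT mean, cKO replicate 1 was the lowest of the 6 libraries for *Chga* (-0.67), *Pyy* (-1.05), *Gcg* (-0.64), *Insl5* (-1.85) and *Tph1* (-1.64). Its *Chgb* and *Cck* lay inside or above the WT range. The library of cKO replicate 3 was highest of the 6 for *Chgb*, *Pyy*, *Cck* and *Neurod1*, and lowest for *Sst* (-1.22). Without cKO replicate 1 the log2 fold changes of the 5 genes turned above 0, to 0.03 for *Chga*, 0.16 for *Pyy*, 0.08 for *Gcg*, 0.0054 for *Insl5* and 0.20 for *Tph1*, with none past the threshold in limma. The median log2 fold change over the 9 genes was then 0.16. The same library had the low *Hoxd13* and high *S100a8* given above. Its distal colon markers summed to 3116, where the other libraries had between 4823 and 5676. Its immune markers summed to 14903, against 7892 and 8446 in the other cKO libraries and 5027 to 7064 in WT libraries. *S100a8* (2708) and *S100a9* (2680) held a large part of that sum in cKO replicate 1. Of the 8 immune markers, 7 had a log2 fold change above 0 and 1, *Cd3e*, below 0. The part of colon segment or of leukocytes in these values was not tested.

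**Figure D2:**
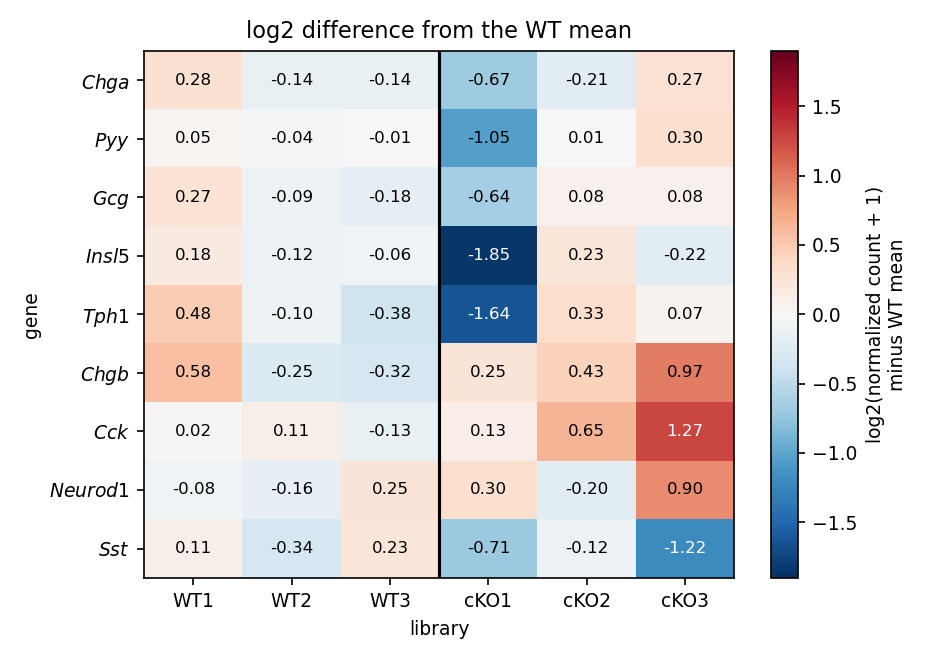
Difference of each tested gene (row) in each library (column) from the mean of the 3 WT libraries, on the log2(normalized count + 1) scale, with the value in each cell and blue for lower and red for higher. The column of cKO replicate 1 is lowest for *Insl5* (-1.85) and *Tph1* (-1.64), while its *Chgb* and *Cck* are near or above the WT mean.

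**Figure D3:**
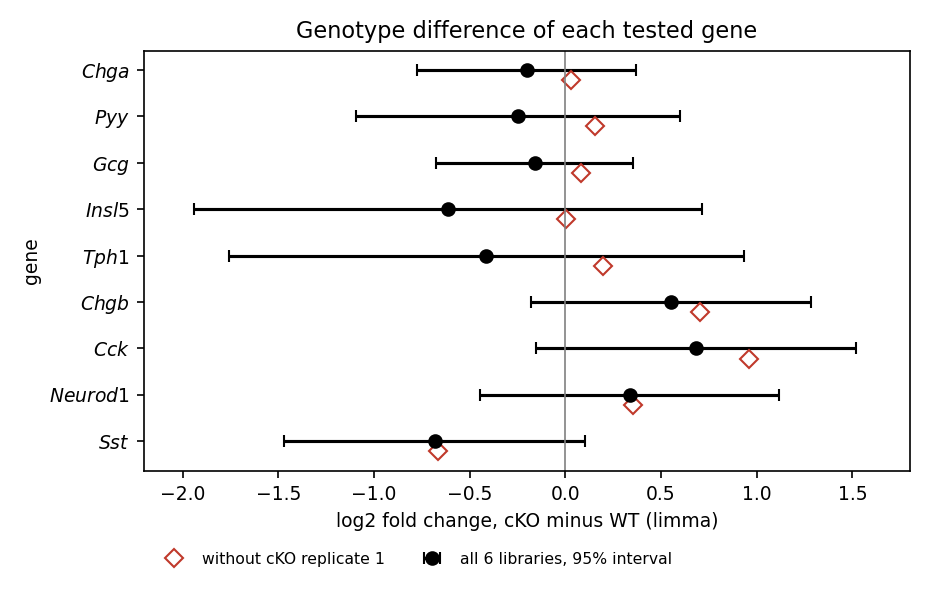
Log2 fold change (cKO minus WT) of the 9 tested genes from limma with its 95% interval (filled circles, 6 libraries), and the value without cKO replicate 1 (open diamonds). Every interval crosses 0, and the diamonds of *Chga*, *Pyy*, *Gcg*, *Insl5* and *Tph1* lie above 0 where their circles lie below it.

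A ratio of 2 genes within a library does not depend on its size factor. Ratios of normalized counts, with no pseudocount, were taken for all 36 pairs of the 9 tested genes, and 10 of them (27.8%) did not overlap between the groups. The same was true of 20.3% of all pairs of tested genes that were above 0 in every library. Nothing particular to the 9 genes is therefore read from the count. All 10 held *Chgb* or *Cck*, 4 the former and 6 the latter. The ratios named were chosen after their values were seen, and the pairs share genes. *Chga* per *Chgb* was 0.281, 0.344 and 0.328 in cKO libraries and 0.436, 0.577 and 0.608 in WT libraries. The granin ratio was thus lower in every cKO library, including cKO replicate 1 (log2 difference -0.76, exact permutation p = 0.10, the smallest possible). *Pyy* per *Cck* was 27.6, 39.7 and 31.1 in cKO libraries and 64.4, 56.3 and 69.3 in WT libraries. *Chga* per *Cck* was 14.3, 13.5 and 12.1 in cKO libraries and 30.1, 20.9 and 25.1 in WT libraries. Both ratios were lower in every cKO library (log2 differences -0.96 and -0.92). *Chgb* was also higher relative to *Gcg* (log2 difference 0.71), *Sst* (1.25) and *Tph1* (0.97) in every cKO library, and *Cck* relative to *Insl5* (1.33), *Tph1* (1.13), *Gcg* and *Sst*. By contrast *Chga* per *Gcg* was 0.821, 0.690 and 0.955 in cKO libraries and 0.849, 0.808 and 0.861 in WT libraries, which overlapped (log2 difference -0.04, exact permutation p = 0.80). Among the genes in these ratios, the CRE core lay in a searched promoter window of *Chga*, *Chgb*, *Sst*, *Cck* and *Tph1*. It was absent from those of *Pyy*, *Gcg* and *Insl5*, and bases outside these windows were not searched. *Chga* and *Sst* were picked for display from the partners with the core, and *Tph1* was not shown. A link of the core with the ratios was not tested.

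**Figure D4:**
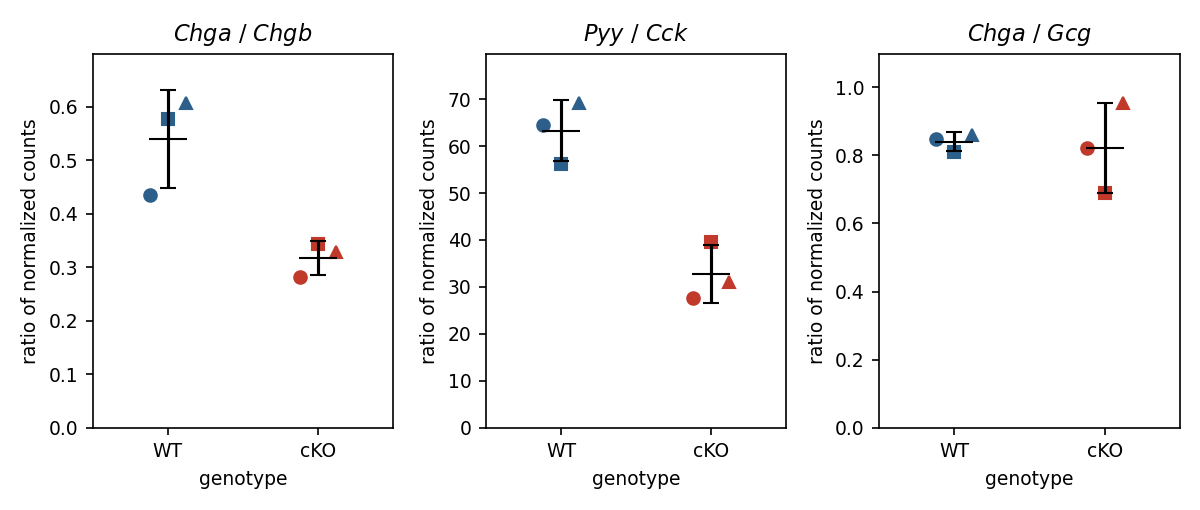
Ratio of normalized counts of 2 enteroendocrine genes within each library, 1 panel per pair. Each panel has 1 point per library, the mean of each genotype with its SD (n = 3) and an axis from 0. *Chga* per *Chgb* lies between 0.281 and 0.344 in cKO libraries and between 0.436 and 0.608 in WT libraries.

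Likeness across the 6 libraries was described by Pearson's r of the log2 values, which share depth and genotype. *Chga* was most like *Gcg* (r = 0.90) among the members, then *Pyy* (0.88), *Tph1* (0.83) and *Insl5* (0.75), while r was 0.47 with *Chgb* and 0.02 with *Sst*. *Pyy* was most like *Insl5* (r = 0.91) and *Tph1* (0.90), and r was 0.24 with *Chgb*. Among all other protein-coding genes the 5 most like *Chga* were *Tecpr2*, *Slc2a5*, *Bhlhe41*, *Sptbn1* and *Lrba*, with r of 0.98 to 0.99. Those most like *Pyy* were *Syt2*, *Zfp623*, *Myo3a*, *Itgae* and *Wdr13*. With 6 libraries and 16246 genes such values are a description only.

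Of 17 EEC transcription factors, 15 were tested. Of these, 9 had a log2 fold change below 0 and 6 above 0 (median -0.06), and 0 passed the test in limma. At an unadjusted p under 0.05, 0 were lower and 0 higher, against 7.08% and 6.91% of all genes tested. *Neurog3*, which starts the EEC program, was 18.2, 12.2 and 14.4 in cKO libraries and 4.94, 11.7 and 17.97 in WT libraries. The smallest p-values were for *St18* (-0.89), *Rfx6* (0.63), a factor needed for several EEC types, and *Etv1* (-0.47), with adjusted p = 0.365, 0.397 and 0.381 in limma. None of these 3 overlapped between the groups. Of the 15, 2 were lower and 1 higher without overlap, against 10.9% and 10.5% of all genes tested. *Insm1* (0.19), *Pax6* (-0.10), *Nkx2-2* (-0.25), *Lmx1a* (0.15) and the serotonin-lineage factor *Fev* (-0.13) overlapped.

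Among other gut hormones, 4 of the 6 analysed were tested, 1 with a log2 fold change below 0 and 3 above 0 (median 0.69). In that list 0 were called by limma. At an unadjusted p under 0.05, 1 (*Sct*) was higher, against 6.91% of all genes tested. Secretin, *Sct*, stimulates bicarbonate secretion and had the smallest p of these lists. It was 53.7, 57.5 and 70.1 in cKO libraries and 21.7, 17.99 and 21.97 in WT libraries. The groups lay far apart, with a log2 fold change of 1.51 (SE 0.25, 95% interval 0.93 to 2.09, unadjusted p = 0.000339, adjusted p = 0.137 in limma). Over the alternatives its log2 fold change was 1.35 to 1.65 and its adjusted p 0.0135 to 0.487 in limma, below 0.05 with array weights. Ghrelin, *Ghrl*, was 13.4, 24.3 and 24.8 in cKO libraries and 9.88, 10.8 and 11.98 in WT libraries (log2 fold change 0.83, adjusted p = 0.362 in limma). The substance P gene *Tac1*, also a neuronal gene, overlapped between the groups (0.56, adjusted p = 0.729 in limma), as did *Ppy* (-0.57). Of the 4, 0 were lower and 2 higher without overlap, against 10.9% and 10.5% of all genes tested.

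Of 20 genes for granule proteins and prohormone processing, 18 were tested, 13 with a log2 fold change below 0 and 5 above 0 (median -0.07). In that list 0 were called by limma. At an unadjusted p under 0.05, 1 was lower and 1 higher, against 7.08% and 6.91% of all genes tested. *Pcsk1*, the convertase that cuts proglucagon into glucagon-like peptides, was 39.3, 50.9 and 67.0 in cKO libraries and 89.9, 103 and 68.9 in WT libraries. It was lower in every cKO library (log2 fold change -0.74, unadjusted p = 0.0263, adjusted p = 0.314 in limma). The synaptotagmin *Syt13* was higher in every cKO library (0.77, unadjusted p = 0.00793, adjusted p = 0.257 in limma), and the granule protein gene *Resp18* was lower in every one (-0.56, adjusted p = 0.445). Of the 18, 2 were lower and 1 higher without overlap, against 10.9% and 10.5% of all genes tested. The secretogranin genes *Scg2* (-0.24), *Scg3* (-0.56) and *Scg5* (-0.42) overlapped, as did *Scgn* (-0.32), the carboxypeptidase gene *Cpe* (0.09) and the amidating enzyme gene *Pam* (-0.06).

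Of 15 genes of serotonin handling, 12 were tested, 8 with a log2 fold change below 0 and 4 above 0 (median -0.09). In that list 0 were called by limma. At an unadjusted p under 0.05, 1 was lower and 1 higher, against 7.08% and 6.91% of all genes tested. *Ddc*, the decarboxylase after *Tph1*, was 474, 1204 and 944 in cKO libraries and 1194, 902 and 905 in WT libraries, lowest in cKO replicate 1. *Slc18a1*, the vesicular carrier of enterochromaffin cells, overlapped (0.14). The receptor genes *Htr4* (-0.54) and *Htr7* (0.90) had unadjusted p = 0.0313 and 0.0498 and adjusted p = 0.325 and 0.357 in limma. *Trpa1*, an irritant channel of enterochromaffin cells and nerves, was 92.0 in cKO replicate 1 and 8.10 to 34.3 in the other 5 libraries. Chosen after their values were seen, the serotonin transporter gene *Slc6a4* was 26.8, 251 and 170 in cKO libraries and 264, 261 and 330 in WT libraries, and the amine oxidase gene *Maob* 54.6, 714 and 300 against 881, 755 and 853. Both were lower in every cKO library and lowest in cKO replicate 1 (adjusted p = 0.475 and 0.417 in limma). Of the 12, 2 were lower and 0 higher without overlap, against 10.9% and 10.5% of all genes tested.

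Of 10 nutrient and metabolite receptors analysed, 7 were tested, 3 with a log2 fold change below 0 and 4 above 0 (median 0.04). In that list 0 were called by limma. At an unadjusted p under 0.05, 1 (*Ffar4*) was higher, against 6.91% of all genes tested. *Ffar4*, a receptor for long-chain fatty acids, was 252, 222 and 259 in cKO libraries and 152, 111 and 123 in WT libraries. The groups did not overlap (log2 fold change 0.93, SE 0.17, unadjusted p = 0.000569, adjusted p = 0.161 in limma). Its adjusted p ran from 0.0164 with array weights to 0.487 without cKO replicate 3. The short-chain fatty acid receptor *Ffar2* was 326, 312 and 312 in cKO libraries and 386, 335 and 348 in WT libraries (-0.17, adjusted p = 0.504 in limma). *Gpr119* (-0.42), a lipid receptor of L cells, and *Tas1r3* (0.23) overlapped. Of the 7, 1 was lower and 1 higher without overlap, against 10.9% and 10.5% of all genes tested.

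Of 22 hormone receptors and peptidases analysed, 13 were tested, 8 with a log2 fold change below 0 and 5 above 0 (median -0.14). In that list 0 were called by limma. At an unadjusted p under 0.05, 2 were lower, against 7.08% of all genes tested. The peptide YY receptor *Npy1r* was 52.7, 88.4 and 94.9 in cKO libraries and 156, 101 and 186 in WT libraries. The somatostatin receptor *Sstr1* was 31.6, 65.2 and 42.3 in cKO libraries and 145, 72.0 and 67.9 in WT libraries. Both were lower in every cKO library, with log2 fold changes of -0.90 and -0.99 and adjusted p = 0.304 and 0.322 in limma. *Sstr3* was also lower in every cKO library (-0.90, adjusted p = 0.417 in limma), while *Sstr2* (0.33) and the glucagon-like peptide receptor gene *Glp2r* (0.15) overlapped. Of the 13, 3 were lower and 0 higher without overlap, against 10.9% and 10.5% of all genes tested.

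**Figure D5:**
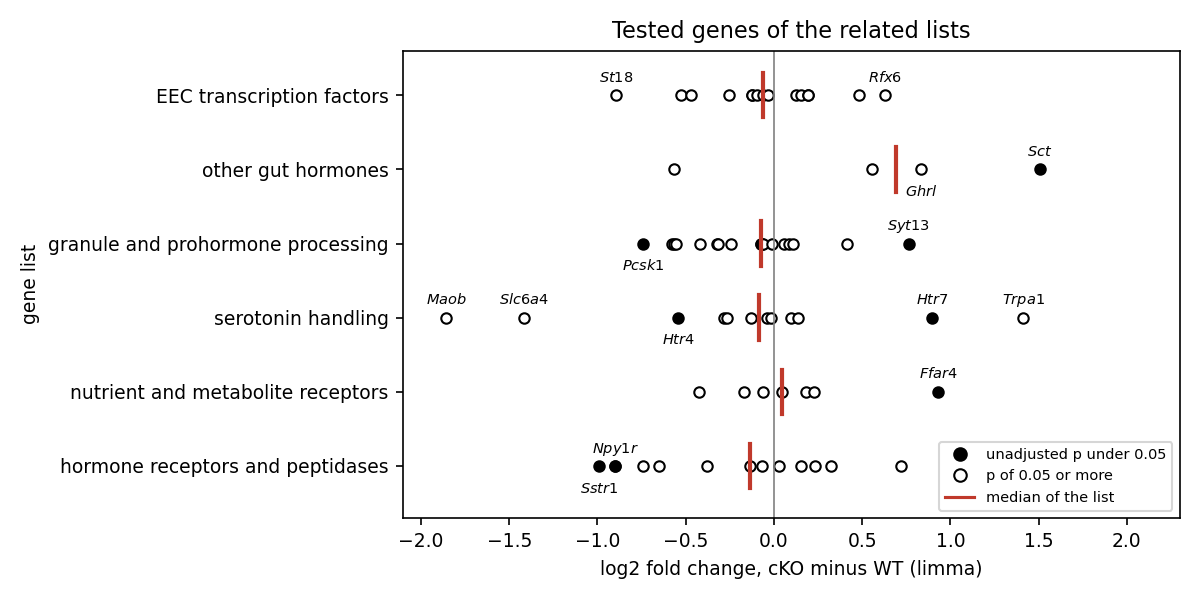
Log2 fold change (cKO minus WT, limma) of each tested gene in 6 gene lists, with filled circles for an unadjusted p under 0.05, open circles for the rest and a red bar at the median of the list. *Sct* at 1.51 and *Ffar4* at 0.93 lie to the right, and no gene shown passed an adjusted p of 0.05.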

How the data were processed

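Colon RNA of 3 cKO and 3 WT libraries was sequenced (TRIzol extraction and a kit that does not mark strand, per the labels). The signal analysed, as deposited by the authors, is the normalized count, in which the reads of a gene were scaled by the size factor of their library. The submitters' processing notes name HISAT2 2.0.5, featureCounts 1.5.0-p3 and the human build hg18, while identifiers and coordinates are mouse and 97.3% equal GENCODE M21 on GRCm38. How reads shared between genes were treated is not given in the sources used here. The table also holds the authors' genotype means, log2 fold changes and p-values, which the authors computed before deposit and which were not used.

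Genes whose mean reached 10 were tested on log2(value + 1) with lmFit and eBayes (trend, robust) in limma 3.58.1 under R 4.3.3, two-sided, with Benjamini-Hochberg adjustment over all genes tested and a threshold of 0.05. The fit was tested on simulated data. A fold change on this scale understates the change of low genes. Single values and ratios were compared with exact permutation tests. The genes named are the 10 members, the 3 tested genes of each list with the smallest p, a fixed set of EEC genes, and the 5 protein-coding genes most like *Chga* and *Pyy*. Other genes were named after their values were seen: *Slc6a4*, *Maob*, *Hoxd13*, *S100a8*, *S100a9*, *Cd3e*, *Kit*, *Cma1* and *Hdc*. *Nedd4l* was named as the deleted gene. Members and lists were chosen with earlier results of these data known. Alternatives were other filters, pseudocounts, scalings, moderation, array weights, a replicate block and leaving out each library. RefSeq promoter sequences were searched on both strands. Figures were drawn with matplotlib 3.10.9.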

Additional observations from a re-analysis of the deposited data

How the results depend on the processing

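Across 16 alternative settings, 132 of 141 log2 fold changes of the members kept their direction and none passed an adjusted p of 0.05. Over all genes, the count called lower and higher was 0 and 0, 23 and 7 without the filter, and 369 and 262 with array weights, which weighted cKO replicate 3 most. Leaving out 1 library gave 0 to 52 lower and 0 to 70 higher, the most without cKO replicate 2 and 22 and 2 without cKO replicate 1. At an unadjusted p under 0.05, array weights gave 1 member lower (*Sst*) and 3 higher (*Chgb*, *Cck* and *Neurod1*), and leaving out 1 library gave 0 to 1 lower and 0 to 1 higher. Array weights turned *Chga* (0.16), *Pyy* (0.16), *Gcg* (0.0476), *Tph1* (0.0105), *Fev* (0.33), *Pax6* (0.36), *Scg2* (0.13) and *Scgn* (0.19) above 0. Leaving out 1 library gave -0.44 to 0.0322 for *Chga*, -0.52 to 0.16 for *Pyy*, -0.28 to 0.0797 for *Gcg*, -1.03 to 0.0054 for *Insl5*, -0.79 to 0.20 for *Tph1*, -0.57 to 0.10 for *Ddc*, -0.42 to 0.0686 for *Fev*, -0.04 to 0.30 for *Glp2r*, -0.15 to 0.0067 for *Pam*, -0.38 to 0.44 for *Pax6*, -0.47 to 0.0273 for *Scg2*, -0.089 to 0.31 for *Cpe*, -0.13 to 0.42 for *Slc18a1* and -0.11 to 0.31 for *Lmx1a*. The causes were not tested. *Nedd4l* passed with array weights (adjusted p = 0.0212 in limma) and without cKO replicate 2 (0.0131).

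Replicate numbers did not pair the libraries (correlations of same-numbered deviations -0.03, -0.09 and -0.06), and with a replicate block 0 genes were called, with a member median of -0.20. DESeq2 and edgeR were planned but not run. Values were whole multiples of a step in each library, but that a step is 1 read was not established for WT replicate 3, so calls rest on limma alone.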
